A study of Oryza sativa with 8 samples.

Results

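Rice roots from a carbon dot seed priming experiment were compared with control roots at the time point labelled D6. The comparison rests on 2 control libraries, labelled D6_CK and treated as normal, and 2 carbon dot libraries, labelled D6_100X. Its members are the 21828 loci, of 55801 in the table, that reached 1 FPKM in 2 or more of these 4 libraries. FPKM is the fragment count per kilobase of gene, scaled to library size. Carbon dots are carbon particles a few nanometres across, and seed priming is a treatment of seeds ahead of germination. What D4, D6 and 100X stand for is not defined in the labels, which name no cultivar either, and the whole series holds 8 libraries in 4 groups of 2 (control and carbon dots at D4 and at D6). Poly(A) RNA was sequenced from whole root tissue, in which fewer cells of a type and less RNA per cell cannot be told apart. Whether the replicates are separate plants is not stated, and the p-values cover no more than the spread between libraries, which may be technical.

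Young roots lengthen by making cells at the tip and then enlarging them. Enlargement needs new cellulose, spun by cellulose synthase complexes at the plasma membrane, and expansins, proteins that loosen the wall. Cells that have stopped growing, such as those of the xylem, lay down a secondary wall with its own set of cellulose synthases. Auxin and cytokinin set the balance between division and elongation, and Aux/IAA proteins, which are themselves products of auxin-induced genes, repress the auxin response.

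Depth could not be read from the deposited values. The FPKM of each of the 34269 loci above 0 could be written as whole numbers times a step of its own. The fit was within 0.005 of a whole number plus rounding of the largest values. Many steps were tried per locus, so a locus above 0 in few libraries could meet this by chance. In a narrower search, 91.93% of 1115 low loci above 0 in all 8 libraries held whole multiples of a step. Ranked from highest to lowest, the whole numbers were nearly the same in all 8 libraries. Over the first 10000 ranks the median spread between libraries at a rank was 0.138%, and 99.67% of the ranks differed by under 1%. The FPKM denominator lay between 22.866 M and 22.868 M fragments in every library. The values are therefore ordered within a shared distribution, no source used here names the step that did this, and a difference in the total RNA or in the shape of the distribution between libraries cannot be seen in them. For that reason no counting interval is given.

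Between groups at D6, Pearson's r across the tested loci on the log2(FPKM + 1) scale was 0.969 to 0.972, against 0.986 between the controls and 0.987 between the carbon dot libraries. Genes are not independent replicates, so these are descriptions. The silicon channel gene NIP2-1, which is expressed mainly in roots, stood between 583.8 and 804.9 FPKM. The 10 listed photosynthesis genes, which mark green shoot tissue, reached at most 5.05 FPKM, and summed to between 6.99 and 9.84 FPKM in the controls, and between 5.42 and 6.71 FPKM in the others. None of these 10 was at 0 in every D6 library. The 3 seed storage markers summed to between 2.57 and 2.78 FPKM in the 4 libraries.

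At D6, 2 metallothioneins, 3 stress transcription factors of the NAC and DREB families and 3 Aux/IAA repressors were among the genes that rose in the carbon dot roots. A cellulose synthase, 3 expansins and 3 genes of the flavonoid list were among those that fell. In all, 783 loci (3.59% of those tested) passed an adjusted p of 0.05 by limma with Benjamini-Hochberg adjustment. Of these, 511 (2.34%) were higher in the carbon dot roots and 272 (1.25%) were lower. The median log2 fold change was 0.82 among the higher and -0.82 among the lower loci, and -0.02 over all loci tested. A change of at least 2-fold was reached by 165 of the higher and 80 of the lower loci, and one of at least 4-fold by 14 and 2. All fold changes are on the log2(FPKM + 1) scale, which understates the change of low genes. Of the called loci, 0 were listed at 0 in both controls and 0 in both carbon dot libraries.

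The count of 783 depended on the fit. It was 129 when all 8 libraries were fitted with 4 group means, and 0 when any 1 of the 4 libraries was left out or when every locus above 0 was tested. The fold changes of these 783 kept their sign in each of these fits, which is no test of them. The fit of all 8 libraries and the test of every locus leave the fold change as it is. With 1 library left out, a locus whose groups do not overlap cannot change sign. An unadjusted limma p under 0.05 was found for 5486 loci (25.1%), 2783 higher and 2703 lower, and the smallest adjusted p was 0.0183. An exact permutation test of 2 libraries against 2 cannot go below a two-sided p of 0.333.

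**Figure D1:**
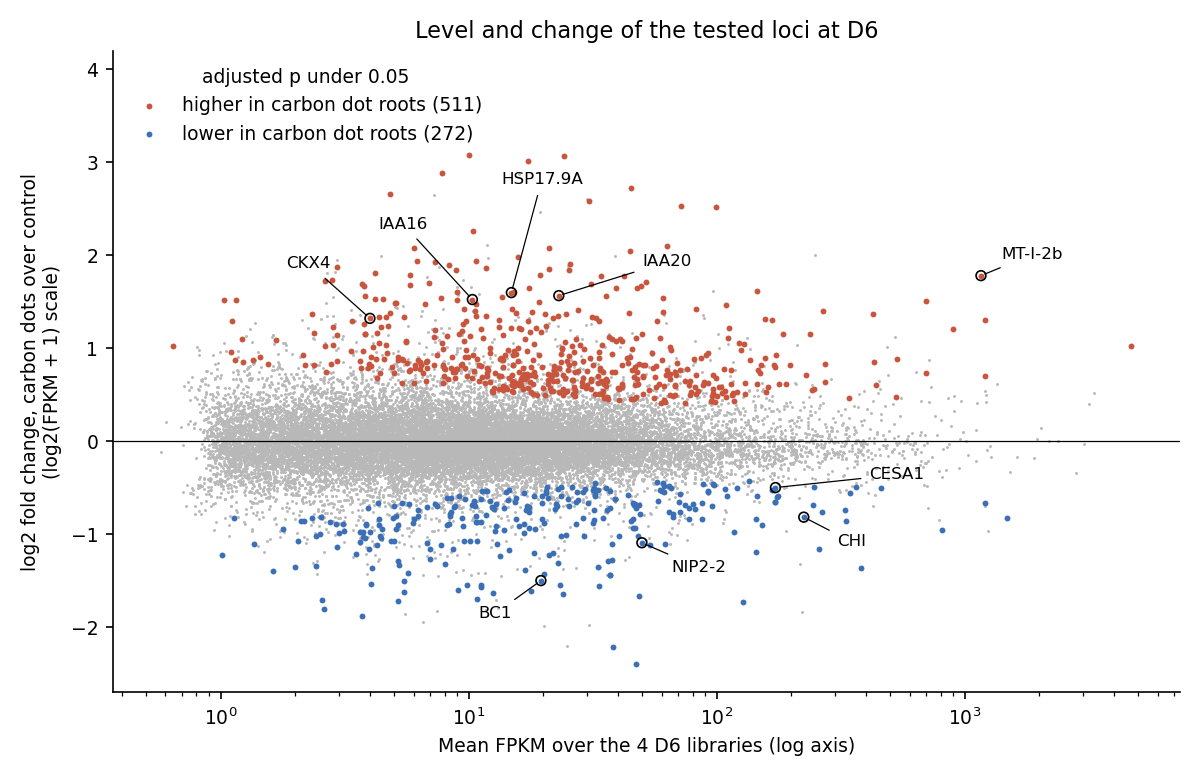
Mean FPKM over the 4 D6 libraries (log axis) against the log2 fold change of carbon dots over control, 1 point per tested locus, with the 511 loci called higher in red, the 272 called lower in blue and the rest in grey. Calls lie on both sides of 0 at all levels, and 9 named genes are circled.

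Abundant loci were called more often. Among loci with a mean under 2 FPKM, 0.448% were called higher and 0.224% lower. Among the 1056 loci at 100 FPKM or above, the shares were 5.59% and 2.84%. The median residual SD (log2) was 0.150 in the lowest bin, 0.0835 at 20 to 100 FPKM and 0.0849 in the highest bin. Whether this spread accounts for the shares was not tested. The loci called higher held 3.59% of all FPKM in the controls and 6.78% with carbon dots. Those called lower held 3.11% and 1.78%. The direction of both shifts follows from the calls, which were made in the same libraries.

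**Figure D2:**
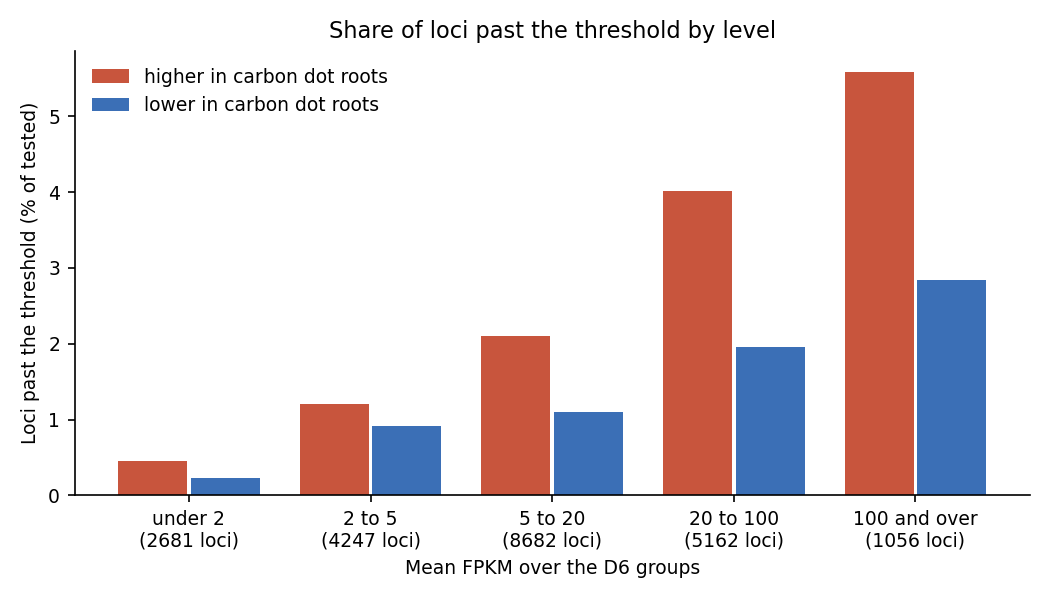
Share of tested loci called higher (red bars) or lower (blue bars) in the carbon dot roots, in percent, for 5 bins of mean FPKM over the D6 groups, with the number of loci in each bin below it. Both shares rise from bin to bin, and the red bar is the taller in each.

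In 29 gene lists with a total of 432 tested loci, 35 were called, 22 higher and 13 lower. Over all 21828 tested loci 2.34% were called higher and 1.25% lower. At an unadjusted limma p under 0.05, 2783 of them were higher and 2703 lower. The counts of each list below are to be read beside these shares. The lists were chosen with earlier results of these data known, so a count above these shares is no test of a list. Names of the called loci come from symbols matched to a reference table by position. Of the 35, 23 had such a symbol, 14 of them higher and 9 lower. The other 12 stay in the counts and are not named.

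**Figure D3:**
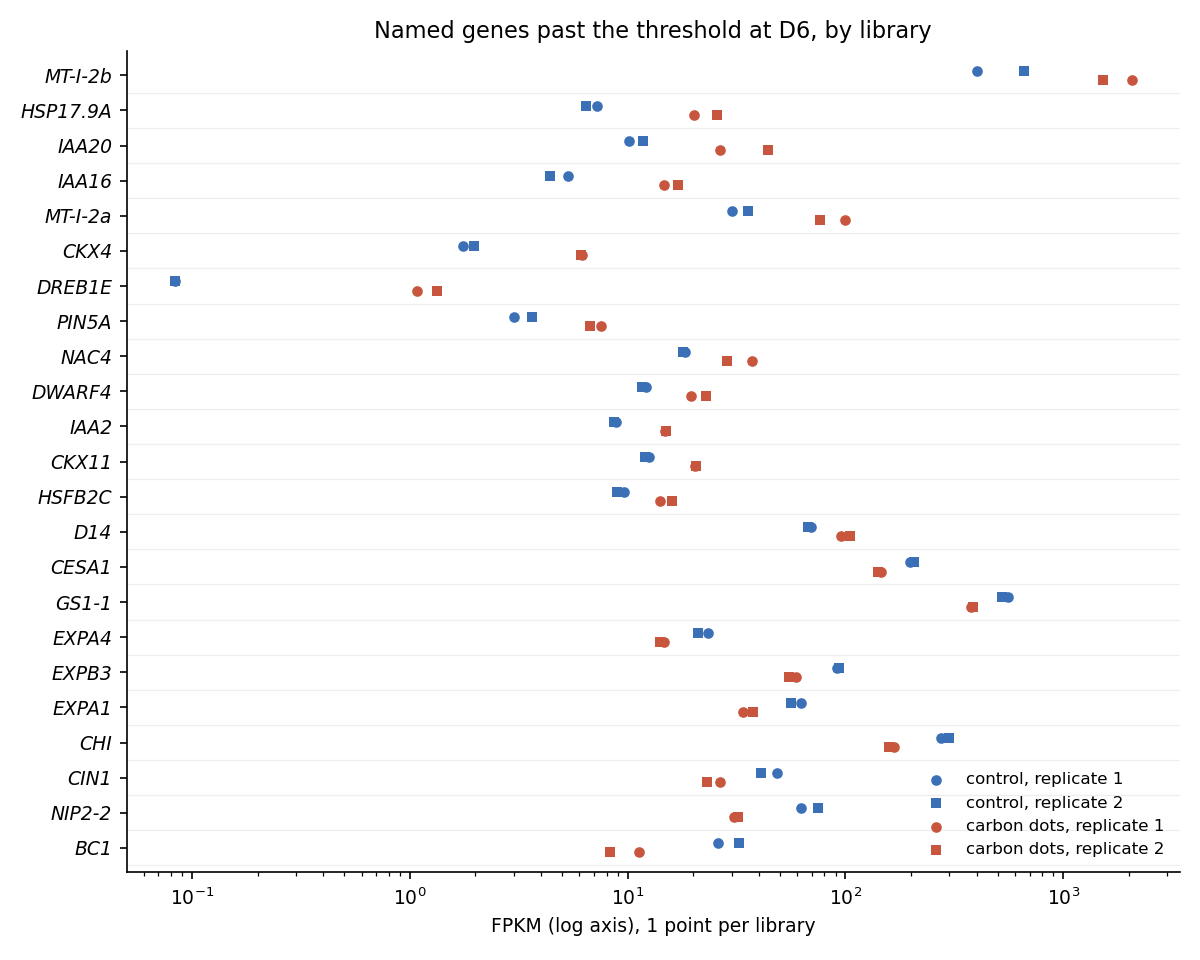
FPKM (log axis) of the 23 named genes in each of the 4 D6 libraries, controls in blue and carbon dots in red, circles for replicate 1 and squares for replicate 2. In every row the control and the carbon dot points do not overlap.

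Cellulose synthase transcripts were lower throughout the list. CESA1 (LOC_Os05g08370), a subunit of the complexes that build the primary wall, stood at 198.7 and 205.7 FPKM in the controls against 145.0 and 140.9 FPKM with carbon dots. It fell by 0.50 ± 0.07 (log2, SE; limma adjusted p = 0.0385) and was the called member among 9 tested. The other 8 also had negative fold changes, and the groups did not overlap for any of the 9, where 30.5% of all tested loci were lower without overlap. At an unadjusted limma p under 0.05, 8 of the 9 were lower, against 2703 of all 21828 loci. The list median was -0.50, against -0.02 over all loci.

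Within the family the secondary wall subunits had the largest differences. CESA4 read 83.8 and 96.6 FPKM in the controls against 58.0 and 40.7 FPKM with carbon dots (log2 fold change -0.88 ± 0.18 SE, limma adjusted p = 0.0719). CESA7 read 93.7 and 113.3 against 64.3 and 47.3 FPKM (limma adjusted p = 0.0656). CESA9 read 79.1 and 94.3 against 56.0 and 35.7 FPKM (limma adjusted p = 0.0923). In these 3 the carbon dot replicates lay further apart than those of CESA1, and replicate 2 was the lower in each. CESA3, a primary wall subunit and the most abundant member over the 4 libraries, differed least, at 189.4 and 186.8 against 171.6 and 155.7 FPKM (limma adjusted p = 0.207).

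Secondary wall regulators and wall proteins went the same way, with 2 of 6 called, both lower, and a list median of -0.42. BC1 (LOC_Os03g30250) encodes a COBRA-like protein needed for cellulose assembly in rice secondary walls. It read 26.1 and 32.6 FPKM in the controls against 11.3 and 8.29 FPKM with carbon dots. It fell by 1.50 ± 0.18 (log2, SE; limma adjusted p = 0.0325), the lowest fold change among the 23 called genes with a matched symbol. The remaining 5 loci, none with a matched symbol, had fold changes between -0.88 and -0.34. In the phenylpropanoid and lignin list, which supplies the phenolic polymer of secondary walls, 1 of 20 loci was called lower and 14 of the 20 fold changes were negative. The median of -0.14 was -0.02 without control replicate 1, -0.24 without carbon dot replicate 1 and 0.0041 without carbon dot replicate 2. COMT1, a methyltransferase of lignin synthesis, read 1176 and 1211 FPKM in the controls against 1069 and 989.1 FPKM with carbon dots (limma adjusted p = 0.225).

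Of 13 tested expansins, 3 were called, all lower, and 11 had negative fold changes, with a median of -0.59. EXPA1 (LOC_Os04g15840), an alpha-expansin, read 62.3 and 56.2 FPKM in the controls against 33.8 and 37.4 FPKM with carbon dots and fell by 0.72 ± 0.09 (log2, SE; limma adjusted p = 0.0359). EXPA4 (LOC_Os05g39990) went from 23.4 and 21.0 to 14.6 and 14.1 FPKM (limma adjusted p = 0.0435). The beta-expansin EXPB3 (LOC_Os10g40720) read 91.3 and 93.0 FPKM against 59.3 and 55.0 FPKM, a fall of 0.68 ± 0.07 (log2, SE; limma adjusted p = 0.0301). In all 3 the replicates of a group lay close together and far from those of the other group, as the threshold favours.

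The lowest fold change in the expansin list belonged to EXPA17, a root hair expansin in rice. It read 16.8 and 25.0 FPKM in the controls against 3.68 and 7.21 FPKM with carbon dots, which spread too widely for the threshold (log2 fold change -1.79 ± 0.32 SE, limma adjusted p = 0.0551). CSLD1, a cellulose synthase-like gene of root hair growth, read 11.3 and 11.4 against 4.41 and 7.51 FPKM (limma adjusted p = 0.103). The most abundant expansin, EXPB7, read 238.9 and 189.5 against 162.8 and 185.6 FPKM (limma adjusted p = 0.265). In the root hair and root patterning list 0 of 9 loci passed in limma, and 1 was higher and 2 lower at an unadjusted p under 0.05. QHB, a regulator of the root stem cell niche, stood at 1.47 and 1.69 against 1.18 and 1.36 FPKM (limma adjusted p = 0.452).

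Genes of DNA replication and the cell cycle showed small differences in one direction. All 19 tested fold changes were negative, between -0.51 and -0.02 with a median of -0.26, and 0 of 19 passed in limma, with 10 lower at an unadjusted p under 0.05, against 2703 of all 21828 loci. The carbon dot values were lower without overlap for 17 of the 19, against 30.5% of all loci. PCNA, the sliding clamp of DNA polymerase and the most abundant member, read 82.3 and 84.3 FPKM in the controls against 71.6 and 67.5 FPKM with carbon dots (limma adjusted p = 0.115). MCM7, a subunit of the replicative helicase, read 10.1 and 11.6 against 7.77 and 7.36 FPKM (limma adjusted p = 0.0847). At D4 the median of this list was -0.09.

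**Figure D4:**
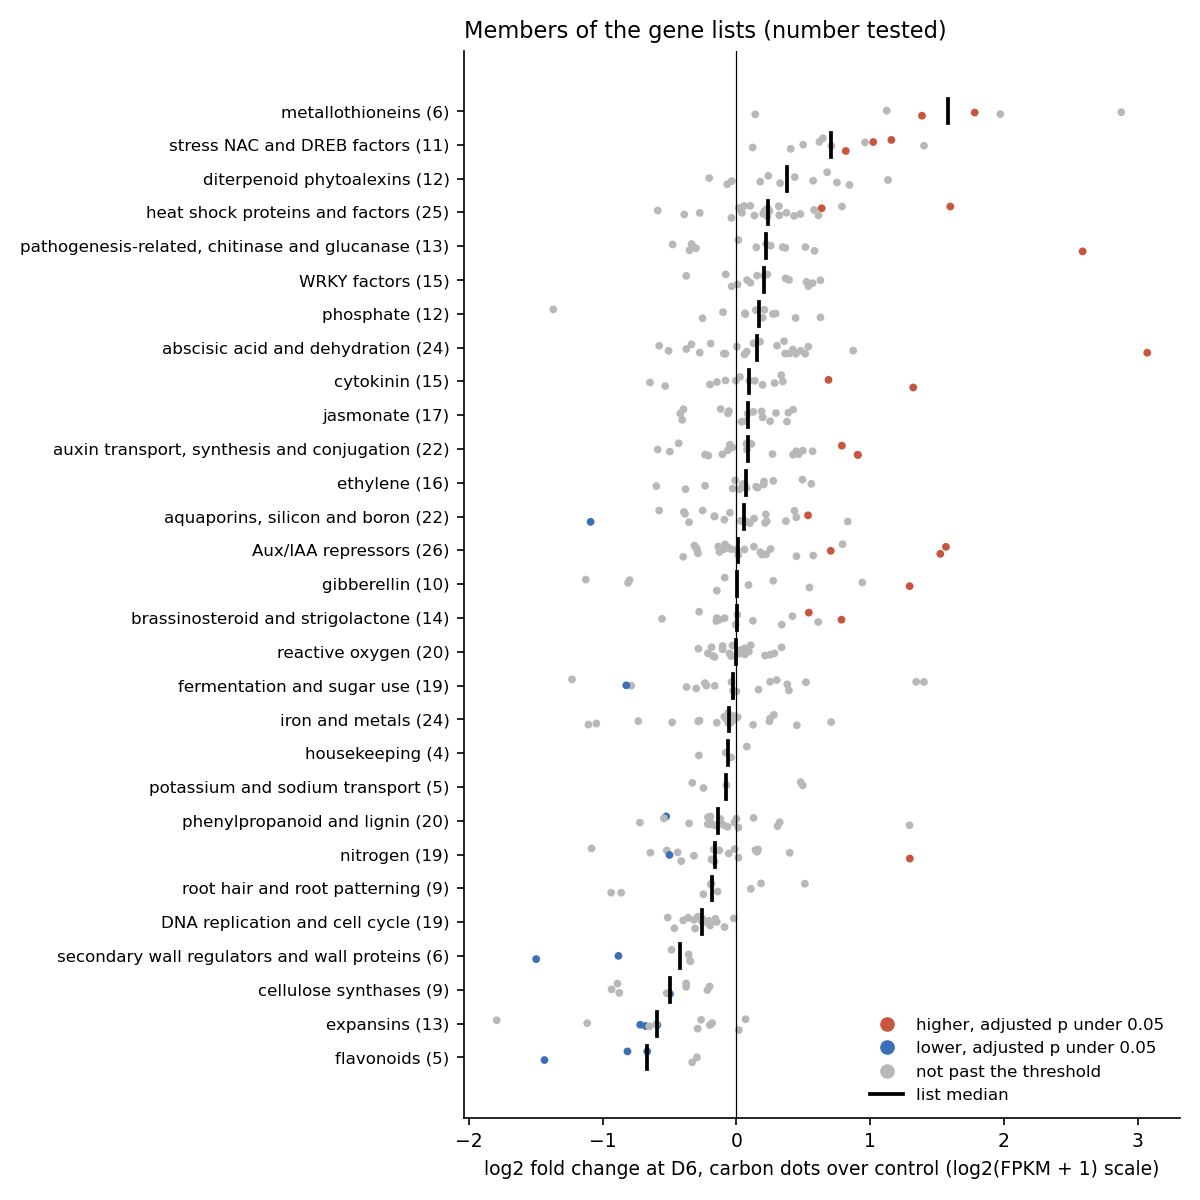
Log2 fold change at D6 of every tested member of 29 gene lists, ordered by list median (black bar), with members called higher in red, called lower in blue and the rest in grey; the number tested stands beside each list name. The metallothionein and the stress NAC and DREB lists have the highest medians, 1.58 and 0.71, and the flavonoid, expansin and cellulose synthase lists the lowest, -0.67, -0.59 and -0.50.

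Flavonoid genes were lower. Of 5 tested, 3 were called, all lower, and all 5 fold changes were negative, with a median of -0.67. CHI (LOC_Os03g60509), the chalcone isomerase that closes the central ring of flavonoids, read 273.8 and 299.1 FPKM in the controls against 166.3 and 158.3 FPKM with carbon dots. It fell by 0.82 ± 0.08 (log2, SE; limma adjusted p = 0.0270). Of the 9 listed flavonoid loci 4 did not reach the FPKM minimum and were not tested.

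Of 26 tested Aux/IAA repressors 3 were called, all higher, while the list median was 0.01 and 11 members had negative fold changes. IAA20 (LOC_Os06g07040) read 10.1 and 11.7 FPKM in the controls against 26.5 and 44.1 FPKM with carbon dots (log2 fold change 1.57 ± 0.24 SE, limma adjusted p = 0.0452). IAA16 (LOC_Os05g09480) read 5.35 and 4.38 against 14.6 and 17.1 FPKM (log2 fold change 1.52 ± 0.13 SE, limma adjusted p = 0.0244). IAA2 (LOC_Os01g09450) read 8.83 and 8.64 against 14.8 and 14.9 FPKM (limma adjusted p = 0.0321). The rise was thus in 3 genes of low to middling level, and the most abundant member, IAA13, read 220.6 and 208.9 against 185.2 and 218.7 FPKM with overlapping groups (limma adjusted p = 0.626).

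Of 22 tested genes of auxin transport, synthesis and conjugation, 3 were called, all higher, and 1 of these had a matched symbol. PIN5A (LOC_Os01g69070), of the PIN family of auxin carriers, read 3.01 and 3.63 FPKM in the controls against 7.50 and 6.70 FPKM with carbon dots (limma adjusted p = 0.0385). The most abundant PIN gene of the list, PIN1B, stood at 80.7 and 81.4 against 84.7 and 86.2 FPKM (limma adjusted p = 0.529).

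Cytokinin oxidases degrade cytokinin, and both called members of the cytokinin list (15 tested) were of this kind and higher. CKX4 (LOC_Os01g71310) read 1.76 and 1.96 FPKM in the controls against 6.17 and 6.12 FPKM with carbon dots (log2 fold change 1.32 ± 0.11 SE, limma adjusted p = 0.0244). CKX11 (LOC_Os08g35860) read 12.6 and 12.0 against 20.3 and 20.5 FPKM (limma adjusted p = 0.0316). The type A response regulator genes RR1 and RR2, which cytokinin induces, read 2.201 and 2.15 against 1.28 and 1.11 FPKM and 29.4 and 30.3 against 26.6 and 25.2 FPKM. Neither passed (limma adjusted p = 0.0918 for RR1 and 0.193 for RR2). Both were chosen after their values were seen, and the other listed regulators are not described here. The list joins regulators and oxidases, so its median describes neither kind alone. Over the whole cytokinin list 9 fold changes were positive and 6 negative, with a median of 0.10, so the list as a whole was not lower.

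In the brassinosteroid and strigolactone list 2 of 14 were called, both higher. DWARF4 (LOC_Os03g12660), a cytochrome P450 of brassinosteroid synthesis, read 12.1 and 11.6 FPKM in the controls against 19.6 and 22.9 FPKM with carbon dots (limma adjusted p = 0.0362). D14 (LOC_Os03g10620), the strigolactone receptor, read 69.2 and 67.2 against 95.0 and 104.6 FPKM (limma adjusted p = 0.0421). One of 10 gibberellin genes was called, higher and without a matched symbol. SLR1, the DELLA repressor of gibberellin response, read 79.4 and 83.5 against 91.5 and 82.2 FPKM (limma adjusted p = 0.553). In the ethylene and jasmonate lists 0 of 16 and 0 of 17 passed in limma, with 1 and 2 higher and 2 and 3 lower at an unadjusted p under 0.05. Over all loci 25.1% had an unadjusted limma p under 0.05, both directions together.

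Stress transcription factors were higher throughout their list. All 11 tested NAC and DREB genes had positive fold changes, 3 were called, and the groups overlapped for 0 of 11, where 27.4% of all tested loci were higher without overlap. The list median was 0.71. NAC4 (LOC_Os01g60020) read 18.3 and 17.89 FPKM in the controls against 37.1 and 28.7 FPKM with carbon dots (log2 fold change 0.82 ± 0.14 SE, limma adjusted p = 0.0497). DREB1E (LOC_Os04g48350), of the family that binds cold- and drought-response promoters, stood at 0.0831 FPKM in both controls against 1.08 and 1.33 FPKM with carbon dots (log2 fold change 1.02 ± 0.15 SE, limma adjusted p = 0.0429). NAC6, the most abundant member with a matched symbol, read 100.1 and 81.3 against 149.0 and 134.7 FPKM (limma adjusted p = 0.0626). DREB1B was high in carbon dot replicate 1, at 14.3 FPKM, against 5.88 in replicate 2 and 2.49 and 3.30 in the controls (limma adjusted p = 0.113).

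Metallothioneins, small cysteine-rich proteins that bind metal ions, had the highest list median, 1.58, with 2 of 6 called and 6 of 6 fold changes positive. MT-I-2b (LOC_Os01g74300) read 403.3 and 657.1 FPKM in the controls against 2066 and 1521 FPKM with carbon dots (log2 fold change 1.78 ± 0.27 SE, limma adjusted p = 0.0445). MT-I-2a (LOC_Os01g05650) read 30.2 and 35.5 against 99.4 and 76.7 FPKM (log2 fold change 1.39 ± 0.15 SE, limma adjusted p = 0.0301). Both genes were 2 or more times as high in each carbon dot library as in either control.

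Carbon dot replicate 1 was the higher of its group in most of this family. MT2B read 985.1 FPKM there and 471.6 FPKM in replicate 2, against 243.7 and 400.0 FPKM in the controls (limma adjusted p = 0.181). The list median was 0.92 without that library. The most abundant member, MT1A, stood at 1980 and 1873 FPKM against 1980 and 2277 FPKM (limma adjusted p = 0.491). Metallothionein genes are short and alike, and how reads shared between copies were counted is not given in the sources used here.

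Among heat shock proteins and factors 2 of 25 were called, both higher, with 21 positive fold changes and a median of 0.23, or 0.14 without carbon dot replicate 1. HSP17.9A (LOC_Os03g15960), a small heat shock protein that holds unfolding proteins in solution, read 7.23 and 6.46 FPKM in the controls against 20.2 and 25.6 FPKM with carbon dots (log2 fold change 1.60 ± 0.14 SE, limma adjusted p = 0.0244). HSFB2C (LOC_Os09g35790), a class B heat stress factor, read 9.63 and 8.96 against 14.1 and 15.9 FPKM (limma adjusted p = 0.0457). A more abundant small heat shock gene, HSP17.7, had the opposite sign, at 31.5 and 30.5 against 22.3 and 24.6 FPKM (limma adjusted p = 0.0751).

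Defence and dehydration lists held single called loci, none with a matched symbol. In the list of pathogenesis-related, chitinase and glucanase genes 1 of 13 was called, higher, and the median of 0.22 was 0.38 without control replicate 1 and 0.13 without control replicate 2. In the abscisic acid and dehydration list 1 of 24 was called, higher. Its median of 0.15 was 0.42 over loci with a mean of at least 5 FPKM, 0.41 without control replicate 1 and 0.01 without control replicate 2. In the diterpenoid phytoalexin list 0 of 12 passed in limma, with 2 higher at an unadjusted p under 0.05. Its median of 0.38 was 0.04 without carbon dot replicate 1 and 0.70 without carbon dot replicate 2. In the WRKY list 0 of 15 passed in limma, with 5 higher and 1 lower at an unadjusted p under 0.05. The WRKY median of 0.21 was 0.49 without control replicate 1 and -0.02 without control replicate 2. The reactive oxygen list, which holds NADPH oxidases that make it and enzymes that remove it, had a median of -0.0043 over 20 loci. Of these 0 were called in limma and 3 were higher at an unadjusted p under 0.05. Over all loci 25.1% had an unadjusted limma p under 0.05, both directions together.

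Nutrient and sugar genes gave few calls. GS1-1 (LOC_Os02g50240), the cytosolic glutamine synthetase that assimilates ammonium, read 556.4 and 522.5 FPKM in the controls against 376.6 and 385.1 FPKM with carbon dots. It fell by 0.50 ± 0.08 (log2, SE; limma adjusted p = 0.0458) and was 1 of 2 called in the nitrogen list of 19, the other being higher and without a matched symbol. CIN1 (LOC_Os02g33110), a cell wall invertase that splits sucrose outside the cell, read 48.5 and 41.1 against 26.66 and 23.1 FPKM (limma adjusted p = 0.0406). In the aquaporin, silicon and boron list 2 of 22 were called, 1 lower and 1 higher, the higher without a matched symbol. The lower, NIP2-2 (LOC_Os06g12310), is a channel related to the root silicon channel NIP2-1. It read 62.2 and 74.6 against 30.9 and 32.1 FPKM and fell by 1.09 ± 0.11 (log2, SE; limma adjusted p = 0.0259). NIP2-1 itself read 647.9 and 630.7 against 583.8 and 804.9 FPKM, with overlapping groups (limma adjusted p = 0.747).

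In the iron and metal list 0 of 24 loci passed in limma, with 2 higher and 3 lower at an unadjusted p under 0.05. The share of all loci under that p was 25.1%, both directions together. The replicates differed more than the groups in several iron and low-oxygen genes. NAS2, a nicotianamine synthase of iron uptake, read 805.3 and 1366 FPKM in the controls against 745.0 and 1205 FPKM with carbon dots, and the haemoglobin gene HB2 read 24.07 and 106.8 against 13.9 and 59.7 FPKM. In both genes replicate 2 was the higher library of each group. Replicate 2 exceeded replicate 1 by more than 1.5-fold in both groups at 3 of 24 iron and metal loci and 2 of 19 fermentation and sugar loci, against 131 of all 21828 (0.6%). In the phosphate list 0 of 12 and in the potassium and sodium list 0 of 5 passed in limma, with 3 and 2 loci at an unadjusted p under 0.05. The translation factor gene EF-1-alpha, a housekeeping reference, read 593.3 and 667.4 against 622.7 and 601.4 FPKM (limma adjusted p = 0.826).

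The largest changes were in loci without a name. LOC_Os12g33150 read 0.875 and 1.89 FPKM in the controls against 19.8 and 17.5 FPKM with carbon dots (log2 fold change 3.07 ± 0.23 SE, limma adjusted p = 0.0192). LOC_Os01g73250, of the abscisic acid and dehydration list, read 3.54 and 5.26 against 39.3 and 48.9 FPKM (log2 fold change 3.07 ± 0.19 SE, limma adjusted p = 0.0183). In the other direction, LOC_Os04g46820 read 75.6 and 84.1 against 16.5 and 12.6 FPKM and fell by 2.39 ± 0.14 (log2, SE; limma adjusted p = 0.0183). LOC_Os01g11730 read 76.5 and 51.2 against 13.7 and 11.9 FPKM and fell by 2.21 ± 0.20 (log2, SE; limma adjusted p = 0.0244). In all 4 loci every library of one group lay several times above every library of the other. Loci with overlapping groups could not be picked here, so this follows from the choice.

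The D6 changes were set beside the carbon dot effect at D4, which has its own controls. Of the 511 loci higher at D6, 214 (41.9%) had a positive fold change at D4, with a median of -0.02. Of the 272 lower at D6, 170 (62.5%) had a positive fold change at D4, with a median of 0.06. Over all tested loci 45.9% were positive at D4, with a median of -0.01. At D4, 0 of the 783 changed by 2-fold or more in the direction they took at D6, against 36 of all 21828 loci. Among the 23 named genes 10 had the same sign at both times and 13 the opposite one, and their D4 log2 fold changes lay between -0.41 and 0.46. The 783 loci and the 23 genes were chosen by their D6 call, so smaller changes at D4 partly follow from this. The D4 libraries spread more, with a median within-group SD (log2) of 0.136 and 0.144 against 0.0863 and 0.0862 at D6.

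**Figure D5:**
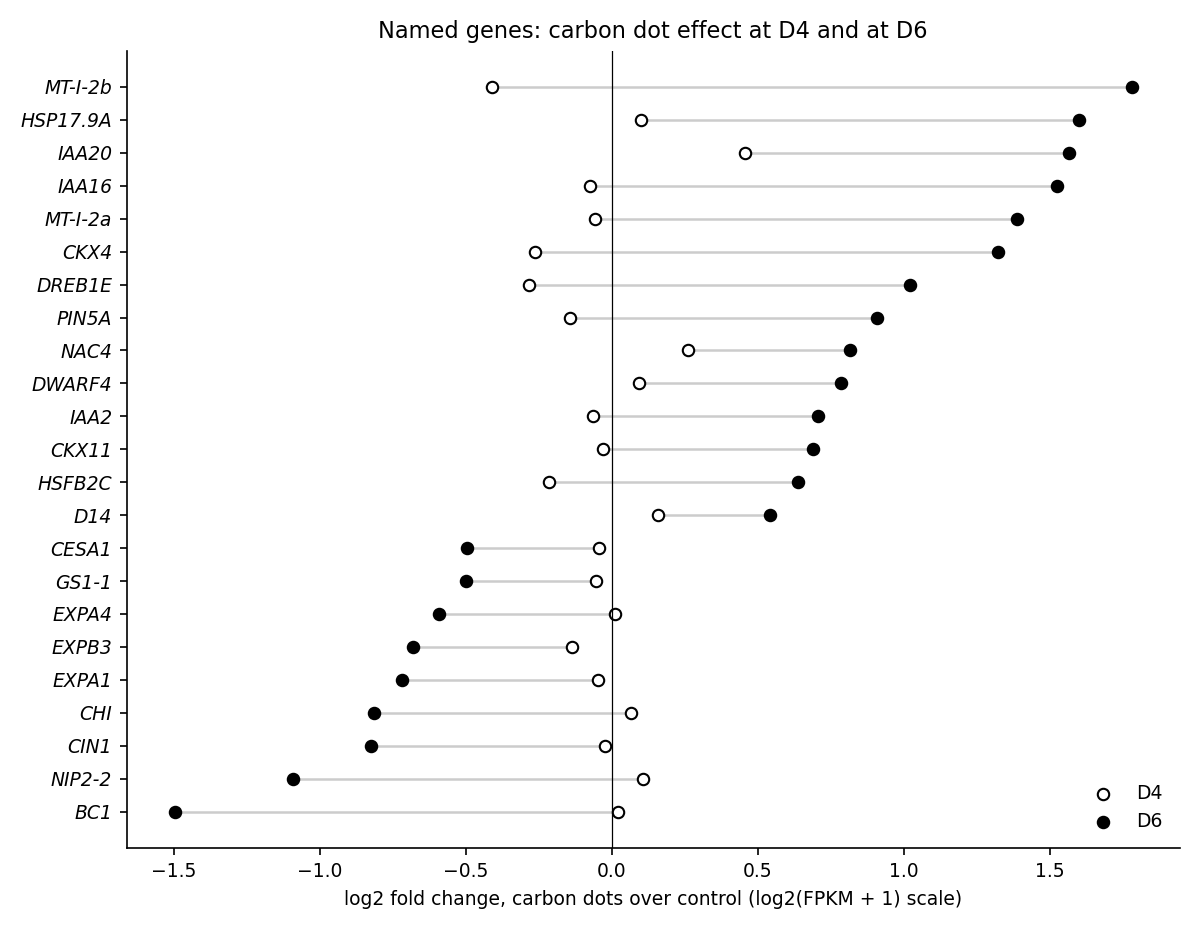
Log2 fold change of carbon dots over control for the 23 named genes at D4 (open circles) and D6 (filled circles), each against its own controls. The D4 values lie between -0.41 and 0.46 and the D6 values between -1.50 and 1.78. The genes were chosen by their D6 call, so the wider range at D6 follows from the choice.

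Whether the effect at D6 differed from that at D4 was tested as an interaction over all 8 libraries. By limma 2 of 21828 loci (0.00916%) passed, and 2072 (9.49%) had an unadjusted p under 0.05. Of the 23 named genes 17 had an unadjusted interaction p under 0.05. They were chosen by their D6 call, and the D6 difference is part of the interaction. A high count among them therefore follows from the choice and is no test of it. The smallest of their limma adjusted interaction p-values was 0.123, for HSP17.9A. For a single named gene a difference between the times is thus not shown after adjustment.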

How the data were processed

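Per the labels' protocols, poly(A) RNA from roots was sequenced. The authors deposited FPKM for 55801 loci in 8 libraries. Tools named in the submitters' processing notes are featureCounts 1.6.4, HISAT2, fastp and SAMtools; settings and gene models are, like the genome build, not given in the sources used here. Loci that reached 1 FPKM in 2 or more D6 libraries were tested on log2(FPKM + 1) with limma 3.58.1 in R 4.3.3 (lmFit, eBayes with trend, 4 D6 libraries, 2 residual degrees of freedom). The interaction used all 8 libraries. Benjamini-Hochberg adjustment covered 21828 loci at a threshold of 0.05. The fits were tested on simulated data. Alternatives were other pseudocounts, filters, centring, variance models, a replicate block and each library left out.

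Members and lists were chosen with earlier results of these data known. Loci were listed by recalled identifier; a symbol was used where the RefSeq table (39387 genes) held it on the same chromosome within 0.1 chromosome lengths, as for 363 of 510 listed loci, an indirect match. Some symbols were matched through synonyms added after the table was seen. Named were the called genes with a matched symbol and the most abundant member of a described list. Of unnamed loci, the 2 highest and 2 lowest called fold changes were given. These loci had to have a mean of at least 5 FPKM in either group and groups that did not overlap. Other genes given as values were chosen after their values were seen. Deviations of same-numbered D6 libraries correlated at -0.11, so the numbers were not taken to pair them.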

Additional observations from a re-analysis of the deposited data

Results flagged for a closer look

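The carbon dot effect differed between D6 and D4 by the interaction test at 2 loci, neither with a name in the sources used here. LOC_Os01g71350, on the list of pathogenesis-related, chitinase and glucanase genes, read 7.04 and 9.13 FPKM in the D6 controls against 52.9 and 53.6 FPKM with carbon dots. At D4 it stood at 1.27 and 1.44 FPKM in the controls against 1.13 and 1.27 FPKM with carbon dots. The effects differed by 2.69 ± 0.20 (log2, SE; limma adjusted p = 0.0391).

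LOC_Os10g02509 had opposite signs at the 2 times. At D6 it read 5.32 and 3.93 FPKM in the controls against 0.803 and 0.423 FPKM with carbon dots, and at D4 0.549 and 0.761 against 5.54 and 6.97 FPKM. The difference of the effects was -3.93 ± 0.28 (log2, SE; limma adjusted p = 0.0391). Both loci lost the call when any 1 of the 8 libraries was left out.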

How the results depend on the processing

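For the D6 effect the count of 783 became 247 without a variance trend, 1341 with limma voom on the recovered whole numbers, which are not raw reads, and 129 in the fit of all 8 libraries, all 129 among the 783. It became 0 without a filter (32690 loci, 6231 at an unadjusted limma p under 0.05), and 0 without any 1 of the 4 libraries (3503 to 3902 at an unadjusted p under 0.05). With the replicate block it was 91, and with the replicate numbers crossed, chosen after seeing the data, 449. A pseudocount of 0.1, a mean of at least 5 FPKM, median centring and robust eBayes gave 706 to 976. Of the named genes BC1, IAA2, IAA16, DWARF4, CHI and HSP17.9A passed in the fit of all 8 libraries, and 0 of 23 did with the block. No fold change of the 23 genes and 5 unnamed loci followed changed sign in any of these fits. The filters, the variance models, the blocks and the fit of all 8 libraries leave the fold change itself as it was. The loci were followed because they were called, so the kept signs are no independent support.

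For the interaction the count of 2 became 0 with a pseudocount of 0.1, no filter, a mean of at least 5 FPKM, the replicate block, voom, or without any 1 of the 8 libraries (1320 to 3236 at an unadjusted limma p under 0.05 in the last), and 3 without a trend. Of the list medians, those of expansins, -0.59, and cytokinin, 0.10, became -0.44 and 0.20 at a mean of at least 5 FPKM. That of flavonoids, -0.67, became -0.78 with a pseudocount of 0.1. These shifts exceeded the within-group SD of the list median between libraries. Within that SD, the abscisic acid and dehydration median, 0.15, was 0.28 with a pseudocount of 0.1 and 0.32 with voom. Also within it, the diterpenoid median, 0.38, was 0.24 at a mean of at least 5 FPKM. The cause of these moves was not tested.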

Other observations

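Loci called in the same direction sometimes stood side by side along the chromosomes. In order of identifier, 27 pairs of neighbouring tested loci were both higher, 12 both lower and 9 of opposite direction, out of 21816 pairs. Of the higher loci 5.28% were followed by a higher one, where 2.34% of all tested loci were higher. Of the lower loci 4.43% were followed by a lower one, where 1.25% of all tested loci were lower. Some such pairs would arise from these shares alone, and the excess was not tested. There were 3 runs of at least 3, on chromosomes 4, 5 and 6, with 3, 4 and 3 loci, all higher. Reads shared between overlapping or duplicated neighbours could not be told apart here.

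One of the 10 most abundant loci carried almost the same value in all libraries. LOC_Os02g41630, on the phenylpropanoid list, read between 2381.36 and 2381.56 FPKM in the 4 D6 libraries. Another of the 10, LOC_Os05g04510, read between 2181.43 and 2181.61 FPKM in these 4, but 1934 FPKM in replicate 2 of both D4 groups. In the shared distribution described above, a locus that keeps its rank keeps its value. Whether these loci did so was not tested. LOC_Os12g38300, the most abundant locus at D6, read 2945 and 3216 FPKM in the controls and 5689 and 6903 FPKM in the carbon dot libraries (log2 fold change 1.03 ± 0.14 SE, limma adjusted p = 0.0385). It was chosen for its level, after its values were seen.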
